A study of Homo sapiens with 6 samples.

Results

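Knockdown of PCYT2 with the second of 2 short hairpins (shPCYT2-2) was compared with a nontargeting hairpin (shNT) by RNA-Seq in SW480, a human colorectal cancer cell line of epithelial origin. The members were chosen by the labelled treatment: 2 libraries carried shPCYT2-2 and 2 carried shNT, 4 of the 6 libraries in the series. The other 2 carried a different hairpin against the same gene (shPCYT2-1) and were used for the shared estimate of spread and for a direct comparison of the hairpins. All groups were infected with a lentiviral hairpin vector and selected with puromycin, so the control cells had been infected and selected as well. The cells were selected populations, and no single clone was named. No label says whether the 2 libraries of a group came from separate cultures, so the p-values measure the spread between these libraries, which may be technical.

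The values are FPKM, fragment counts scaled for the length of the transcript and the size of the library. The unit was read from the values, and TPM over part of the genes cannot be told apart from FPKM here. Of 19655 genes listed in any library after identical entries were merged, 12756 had a mean of at least 0.5 FPKM over the 6 libraries and were tested. The shNT libraries listed 19124 and 18986 genes and the shPCYT2-2 libraries 19209 and 18806. The FPKM of the tested genes summed to between 382620 and 384594 in each of the 4 libraries. The depth in reads is unknown.

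PCYT2 makes CDP-ethanolamine from phosphoethanolamine, the rate-limiting step by which cells build phosphatidylethanolamine (PE) from ethanolamine. The study that made these libraries asked how loss of PCYT2 bears on the Hippo pathway and on epithelial-mesenchymal transition (EMT). In the Hippo pathway the kinases MST1/2 (genes STK4 and STK3) activate LATS1/2, which phosphorylate the coactivators YAP1 and TAZ (WWTR1), and unphosphorylated YAP1 enters the nucleus and drives target genes through the TEAD factors. Values for RNA do not show phosphorylation.

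PCYT2 itself (chr17:81900965-81911464, minus strand, GRCh38, GENCODE 29) was at 11.6 and 13.8 FPKM in the shNT libraries and at 6.71 and 6.18 FPKM in the shPCYT2-2 libraries. Both knockdown libraries lay below both controls. The mean fell by 49.2%, and the difference was -0.88 ± 0.10 on the log2(FPKM + 1) scale (± SE, n = 2 libraries a group), with an adjusted p of 0.0026 in limma. Here and below, differences are on this scale, which understates the change of low genes, adjusted p-values are limma's with Benjamini-Hochberg adjustment over all tested genes, and a gene is called where its adjusted p is under 0.05. The shPCYT2-1 libraries had 7.11 and 7.36 FPKM of PCYT2, and the difference between the hairpins did not pass (-0.15 ± 0.10, adjusted p = 0.31).

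The cells had RNA of an epithelial line. EPCAM (281 and 258 FPKM in shNT, 308 and 275 in shPCYT2-2), VIL1 of the brush border (38.8 and 39.2, then 44.7 and 41.3) and the colonic factor CDX2 (15.5 and 16.9, then 16.03 and 15.1) were present in each library, and none of these differed past the threshold (adjusted p = 0.31, 0.19 and 0.68). Other markers of colon epithelium were called, KRT8, KRT18, KRT19 and HNF4A lower and CDH17 higher, each described below. KRT20, another colonic marker, was at or near 0 in all 4 libraries and was not tested. Markers of other cell types were near 0. The 6 fibroblast markers listed, led by COL1A1, summed to 2.28 and 2.47 FPKM in shNT and 3.79 and 3.58 in shPCYT2-2, the 5 endothelial markers, led by CDH5, to at most 0.688 FPKM, and the 5 immune or blood markers, led by LYZ, to at most 3.07 FPKM, with HBB at 0. The 4 of these markers that were tested did not pass, with COL1A1 above its controls (1.08 and 1.03, then 1.53 and 1.68 FPKM, adjusted p = 0.079), which passed in the fit adjusted for GC content described below (0.42, adjusted p = 0.047). In bulk RNA, a smaller share of cells of one kind and less RNA per cell cannot be told apart.

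With shPCYT2-2, 1585 genes were called, 12.4% of the 12756 tested: 981 higher (7.69%) and 604 lower (4.74%). The changes were small. The median size among called genes was 0.41, 433 differed by more than 0.5, and only 18 by more than 1, 8 of them higher and 10 lower. The median over all tested genes was 0.04, with the 5th and 95th percentiles at -0.33 and 0.41. All 1585 called genes had shPCYT2-2 libraries that did not overlap the shNT libraries, against 57.5% of all tested genes. Calls were more frequent among abundant genes, at 4.28% from 0.5 to 2 FPKM, 9.67% from 2 to 10, 17.3% from 10 to 50 and 25.0% above 50 FPKM.

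**Figure D1:**
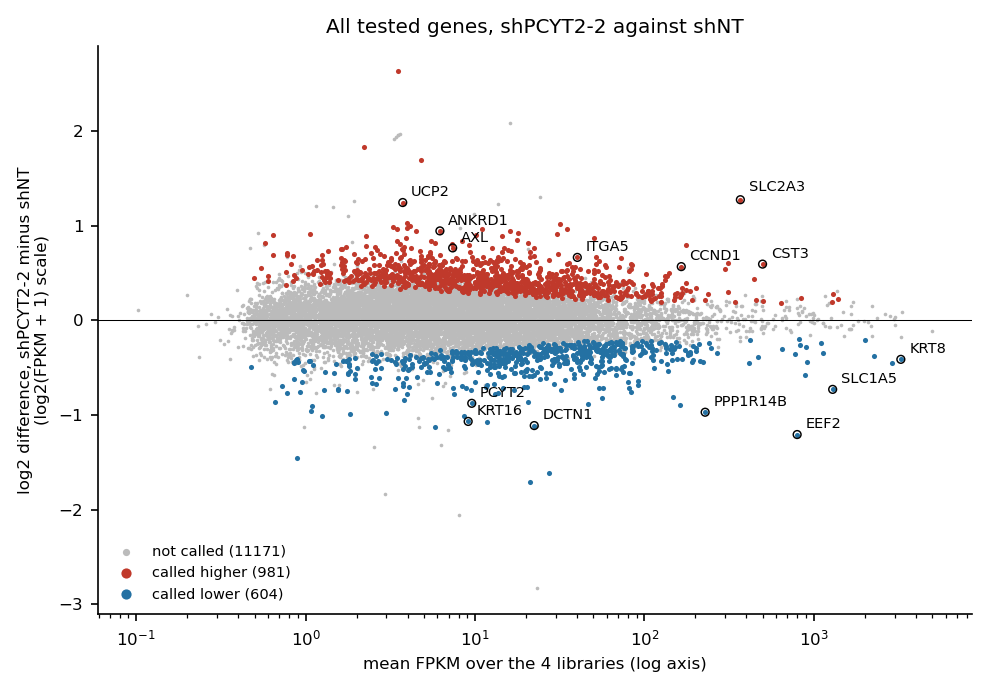
Each point is a tested gene, with its mean FPKM over the shNT and shPCYT2-2 libraries on the x axis (log axis) and its log2 difference, shPCYT2-2 minus shNT on the log2(FPKM + 1) scale, on the y axis. The 981 genes called higher are red, the 604 called lower are blue and the others are grey. SLC2A3 (1.28) and EEF2 (-1.21) stand out among genes above 100 FPKM.

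The libraries of a group were not alike in one respect that ran through many calls. Across genes, the difference between shPCYT2-2 and shNT fell with the GC content of the gene (Spearman rho = -0.47 over 12739 genes, a description across genes, which are not independent). With genes divided into 5 bins by GC content, 13.4% were called higher and 0.628% lower in the lowest bin, and 2.63% higher and 12.01% lower in the highest. The slope lay mainly in shNT replicate 2, whose median deviation from the gene means ran from -0.16 in the lowest bin to 0.12 in the highest, and in shPCYT2-2 replicate 1, where it ran from 0.17 to -0.04. The other 2 libraries ran from -0.02 to -0.02 (shNT replicate 1) and from 0.02 to -0.06 (shPCYT2-2 replicate 2). The part of GC content in each call was not tested. With a trend on GC content and length removed from each library, 1748 genes were called (911 higher, 837 lower), among them 1197 (75.5%) of the 1585, and this fit is called GC-adjusted below.

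The count of calls also rested on single libraries. It was 403 without shNT replicate 2, 125 without shPCYT2-2 replicate 1 and 562 without shPCYT2-2 replicate 2, and in such fits the lone library is taken to vary like the other groups. Of the 1585 genes, 97 (6.12%) were called in all 6 fits that each left out 1 library, 44 higher and 53 lower, and all 97 were called in the GC-adjusted fit too. No called gene changed direction in any of the alternative fits. With the libraries scaled by the median of their ratios, 46.5% of 1642 calls were higher in place of 61.9%.

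SLC2A3 encodes the glucose transporter GLUT3 and was called in all 6 leave-one-out fits. It was at 221 and 209 FPKM in shNT and at 507 and 538 in shPCYT2-2, with no overlap (2.43-fold in the means, 1.28 ± 0.06, adjusted p = 5.0e-05). SLC2A14, a near copy of it whose reads cannot be separated with certainty, was at 2.61 and 2.26 and then at 6.33 and 5.43 FPKM. SLC2A1 (GLUT1) moved the other way, from 467 and 496 to 346 and 356 FPKM (-0.45 ± 0.06, adjusted p = 0.0032), a call kept in 5 of the 6 leave-one-out fits.

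UCP2, an uncoupling protein of the inner mitochondrial membrane, was at 1.76 and 1.86 FPKM in shNT and 5.98 and 5.37 in shPCYT2-2 (3.13-fold, 1.25 ± 0.10, adjusted p = 0.00060). IL2RG, the common gamma chain of interleukin receptors, was at 2.17 and 2.36 and then at 6.02 and 5.31 FPKM (1.03 ± 0.11, adjusted p = 0.0020). FOLR1, a folate receptor, was at 10.6 and 10.9 and then at 21.8 and 21.5 FPKM (2.01-fold, 0.95 ± 0.08, adjusted p = 0.00060). Each of these had knockdown libraries well above both controls and close to each other. The iron exporter ferroportin (SLC40A1) rose from 1.90 and 2.09 to 5.66 and 4.17 FPKM (adjusted p = 0.0054) and the transferrin receptor TFRC, which takes up iron, from 57.2 and 54.5 to 95.5 and 82.1 FPKM (adjusted p = 0.0031). SCML2, a Polycomb group protein, rose by 0.98 ± 0.11, and CST3, the secreted protease inhibitor cystatin C, was abundant and also called in all 6 fits, at 379 and 416 and then 602 and 598 FPKM.

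Among the genes that fell in all 6 leave-one-out fits, EEF2, the elongation factor that moves the ribosome along the mRNA, was at 1073 and 1155 FPKM in shNT and at 469 and 496 in shPCYT2-2. The ranges did not overlap, and the mean fell by 56.7% (-1.21 ± 0.06, adjusted p = 5.0e-05). SLC1A5, the glutamine transporter ASCT2, was at 1554 and 1674 FPKM and then at 1002 and 944 (-0.73 ± 0.06, adjusted p = 0.00057). PPP1R14B, an inhibitor subunit of protein phosphatase 1, was at 290.0 and 316 and then at 151 and 157 FPKM (-0.97 ± 0.06, adjusted p = 0.00043).

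DCTN1, the large subunit of dynactin, was at 29.3 and 32.7 FPKM and then at 14.2 and 13.4 (-1.11 ± 0.08, adjusted p = 0.00043). The collagen receptor kinase DDR1 fell from 8.77 and 7.92 to 3.23 and 3.31 FPKM, the RNA polymerase III subunit POLR3GL from 15.8 and 17.1 to 7.39 and 7.15, and mitochondrial aldehyde dehydrogenase ALDH2 from 11.4 and 12.4 to 5.43 and 5.37 FPKM (adjusted p = 0.00060, 0.00057 and 0.00066). CDK16, a cyclin-dependent kinase, fell from 68.7 and 75.4 to 39.7 and 40.8 FPKM and THAP7, a chromatin-bound repressor, from 26.1 and 27.4 to 15.3 and 13.2 FPKM. CUTA fell from 43.4 and 39.5 to 9.33 and 17.5 FPKM, with shPCYT2-2 libraries that differed from each other more than the controls did.

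**Figure D2:**
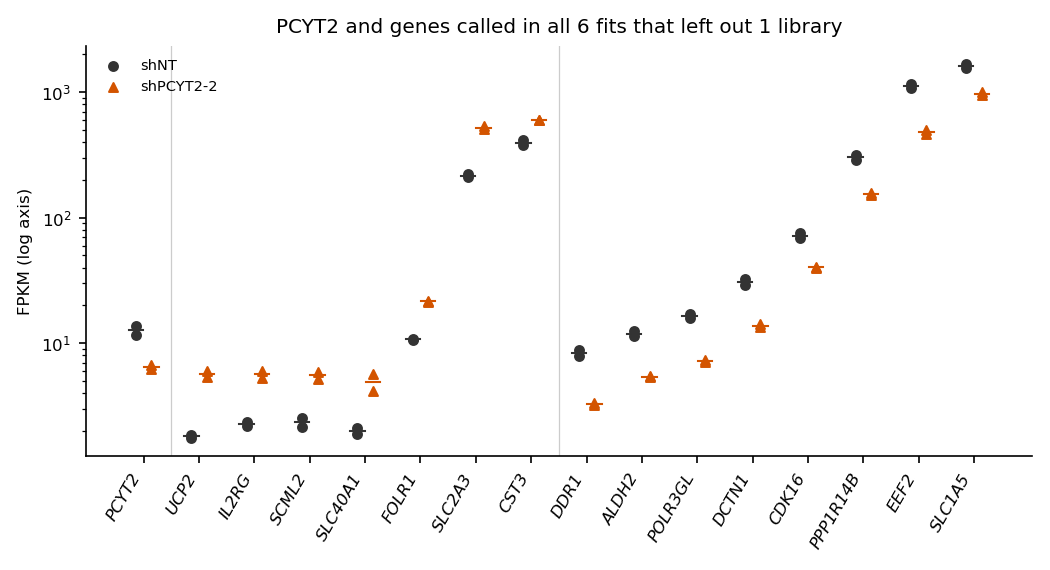
Points give the FPKM (log axis) of PCYT2, of 7 genes that were higher and of 8 that were lower with shPCYT2-2, in each shNT library (black circles) and each shPCYT2-2 library (orange triangles), and short lines give the means of the 2 libraries. The groups do not overlap for any of the 16 genes, with SLC2A3 rising from 209 and 221 to 507 and 538 FPKM and EEF2 falling from 1073 and 1155 to 469 and 496. Libraries of a group lie further apart for some genes, such as SLC40A1 (5.66 and 4.17 FPKM in shPCYT2-2).

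Other genes with large differences were less certain. RPL17-C18orf32 and CORO7-PAM16 (higher) and ARPIN-AP3S2 (lower) are readthrough genes that share reads with the neighbours they join, and the first of these had 0.524 and 0 FPKM in shNT and 5.42 and 8.13 in shPCYT2-2. CORO7-PAM16 was at 0 and 0.855 FPKM in shNT and reached the limit of 0.5 only through the shPCYT2-2 libraries. RGPD6 (1.97 and 1.59 FPKM in shNT, under 0.01 in both shPCYT2-2 libraries) and UPK3BL1 belong to families of near-identical copies, and RGPD6 reached the limit only through the shNT libraries. DHX36 (0.99), MTCH2 (0.96) and the metallothionein MT1E (0.97) were called higher and EPN1 (-0.89) lower, but the shNT libraries stood apart for DHX36 (1.30 and 2.52 FPKM), and these 4 calls were kept in only 2, 3, 3 and 3 of the 6 leave-one-out fits. The DHX36 call was also lost in the GC-adjusted fit (adjusted p = 0.16). Among the most abundant genes, the thymosin TMSB10 fell (2506 and 2627, then 1913 and 2028 FPKM, -0.38 ± 0.05) while TMSB4X rose slightly (802 and 748, then 889 and 936 FPKM, 0.24 ± 0.06), and the tubulins TUBA1B and TUBB4B rose by 0.19 and 0.21. The calls of TMSB4X, TUBA1B and TUBB4B were each kept in 1 of the 6 leave-one-out fits.

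Gene lists were then read by their counts and medians beside the background of 7.69% called higher, 4.74% called lower and a median of 0.04. At the limit of 0.5 FPKM and without rescaling, the median was -0.30 for keratins and 0.28 for YAP/TAZ targets. It was 0.24 for matrix proteases and their inhibitors and 0.23 for the list of endoplasmic reticulum (ER) chaperones, regulators and degradation genes. In the GC-adjusted fit these medians were -0.27, 0.21, 0.12 and 0.11. Other settings moved the medians of many lists by more than a replicate SD, 25 of 40 with median-ratio scaling and 19 of 40 in the GC-adjusted fit, so the order of the lists holds for these settings.

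**Figure D3:**
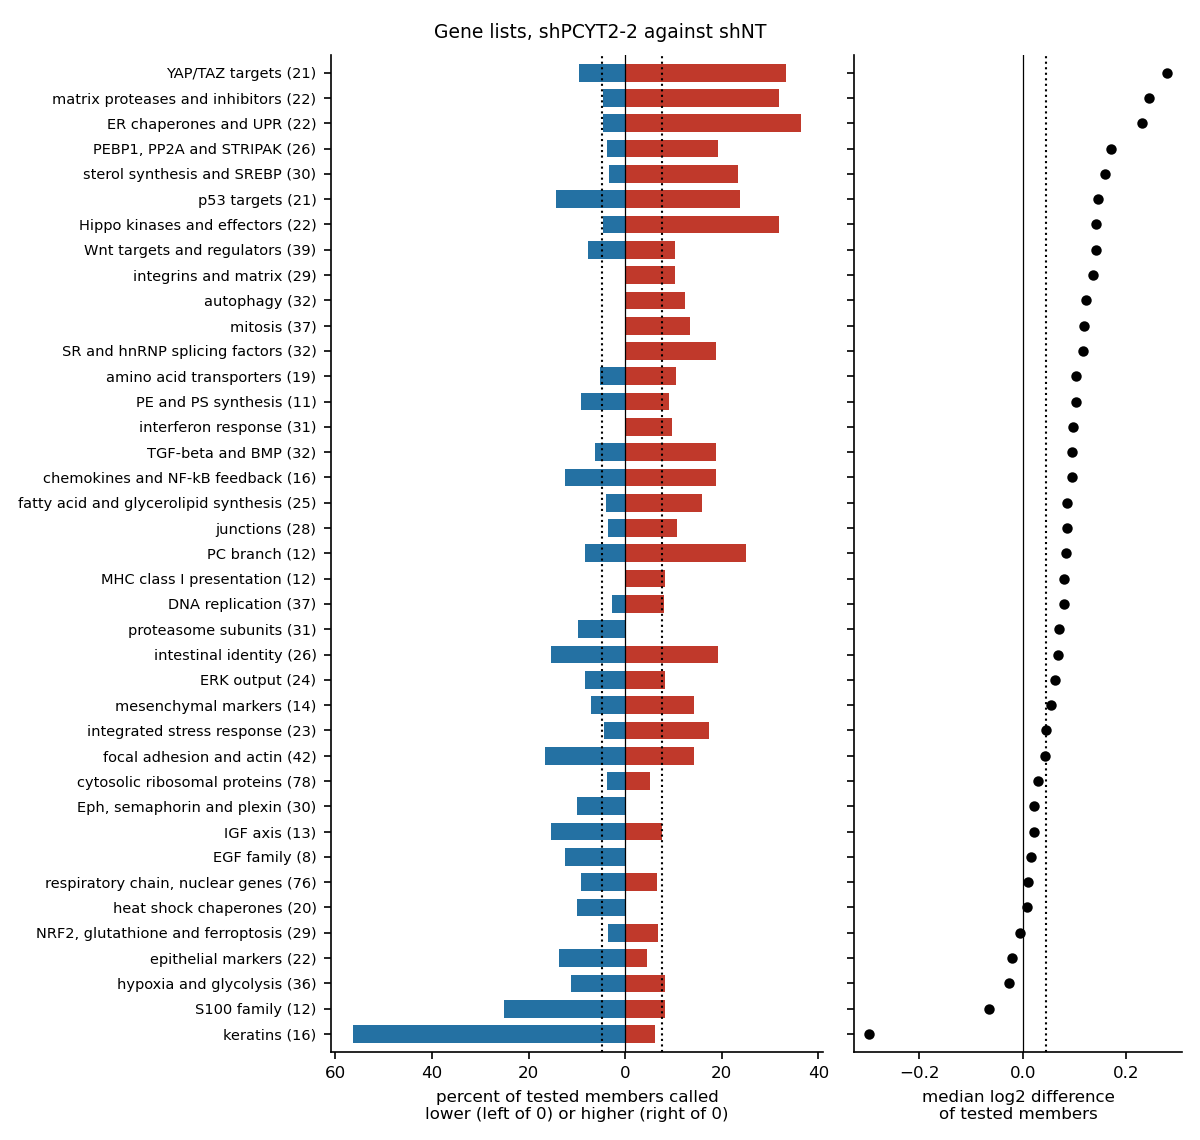
Gene lists with at least 8 tested members (number tested in brackets), in the order of their median log2 difference, shPCYT2-2 minus shNT. Left, bars give the percent of tested members called lower (blue, left of 0) and higher (red, right of 0), with dotted lines at the share of all tested genes (4.74 and 7.69). Right, points give the median, with a dotted line at that of all tested genes (0.04). Keratins stand at one end (-0.30) and YAP/TAZ targets at the other (0.28).

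Around PCYT2, PE can also be made from phosphatidylserine (PS) by the mitochondrial decarboxylase PISD, and phosphatidylcholine (PC) is made by a parallel branch in which PCYT1A is the rate-limiting enzyme, or from PE by the methyltransferase PEMT. Of 11 tested genes of PE and PS synthesis, PCYT2 fell and 1 rose. The latter was ETNK1, the ethanolamine kinase just before PCYT2, at 13.9 and 12.4 FPKM in shNT and 20.6 and 17.6 in shPCYT2-2 (0.50 ± 0.10, adjusted p = 0.015). Of 12 tested genes of the PC branch, 3 rose and 1 fell. PEMT was at 32.6 and 34.0 and then at 21.9 and 22.6 FPKM (-0.56 ± 0.07, adjusted p = 0.0043), and PCYT1A at 6.37 and 6.20 and then at 8.63 and 8.37 FPKM (0.38 ± 0.09, adjusted p = 0.024). The acyltransferases LPCAT2 and LPCAT3, which remodel PC, rose by 0.59 and 0.32, and LPCAT3 ran from 0.20 to 0.43 over the leave-one-out fits. All 6 calls were kept in the GC-adjusted fit, where ETNK1 rose by 0.25 and LPCAT2 by 0.38, and 2, 1 and 5 of the 6 without shNT replicate 2, shPCYT2-2 replicate 1 and shPCYT2-2 replicate 2.

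Sterol synthesis, which is driven by the SREBP factors when membranes are poor in cholesterol, had 7 of 30 tested genes higher and 1 lower (median 0.16). MSMO1, a demethylase late in the pathway, was at 14.4 and 9.95 FPKM and then at 21.4 and 25.9 (0.92 ± 0.15, adjusted p = 0.0089). HMGCS1, an early synthase of the pathway, was at 6.39 and 5.32 and then at 9.49 and 9.97 FPKM (0.65 ± 0.10, adjusted p = 0.0075). The knockdown libraries of both genes lay above both controls. SCAP, the escort of SREBP, fell from 22.0 and 26.1 to 17.5 and 15.5 FPKM, and the factors themselves did not pass (SREBF1 -0.09, adjusted p = 0.44, SREBF2 0.01, adjusted p = 0.96). Of 25 tested genes of fatty acid and glycerolipid synthesis 4 rose, DGAT2, ACSL1, ACLY and ACSS2, by 0.26 to 0.48, and AGPAT2 fell. Of the 13 calls in both lists, 9 were kept in the GC-adjusted fit, AGPAT2 not among them (-0.15, adjusted p = 0.14). Without shNT replicate 2 and shPCYT2-2 replicate 2, 4 and 2 were kept, and without shPCYT2-2 replicate 1, 0 passed in limma, with 12 at an unadjusted p under 0.05.

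In the Hippo list, 7 of 22 tested genes rose and 1 fell (median 0.14), and all of the kinases and adaptors that passed had risen (6 of 15, median 0.26). AMOTL2, described with the YAP/TAZ targets below, is counted in both lists. STK4 (MST1) was at 16.04 and 14.1 FPKM in shNT and at 23.5 and 21.6 in shPCYT2-2 (0.55 ± 0.09, adjusted p = 0.0075). LATS2 was at 3.17 and 3.18 and then at 4.72 and 4.37 FPKM (0.41 ± 0.11, adjusted p = 0.041), a call kept in 0 of the 6 leave-one-out fits in limma (adjusted p from 0.050 to 0.17), and MOB1A, the adaptor of LATS kinases, rose by 0.48 (0.27 in the GC-adjusted fit). Among the effectors, YAP1 rose from 25.8 and 25.5 to 36.4 and 30.7 FPKM (0.37 ± 0.09, adjusted p = 0.027) and TEAD4, the most abundant TEAD, fell from 50.8 and 53.3 to 37.4 and 42.3 FPKM (-0.38 ± 0.07, adjusted p = 0.016). The knockdown and control libraries of both did not overlap, and both calls were kept in 4 of the 6 leave-one-out fits. WWTR1 (-0.19, adjusted p = 0.29), LATS1 (0.27, 0.15), STK3 (0.08, 0.67), TEAD1 (0.13, 0.40), TEAD2 (-0.02, 0.93) and TEAD3 (-0.30, 0.078) did not pass, although WWTR1 did in the GC-adjusted fit (-0.34, adjusted p = 0.039), LATS1 was at 0.10 there (adjusted p = 0.42), and the differences of STK3, TEAD1 and TEAD2 changed sign there. Of the 8 calls, 7 were kept in the GC-adjusted fit and 2, 1 and 5 without shNT replicate 2, shPCYT2-2 replicate 1 and shPCYT2-2 replicate 2.

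Of 21 tested YAP/TAZ targets, 7 rose and 2 fell (median 0.28), and with the limit set at a mean of 5 FPKM 3 rose and 2 fell (median 0.03). ANKRD1, a muscle ankyrin repeat protein and a widely used reporter of YAP activity, was at 4.31 and 3.56 FPKM in shNT and at 8.46 and 8.50 in shPCYT2-2 (2.16-fold, 0.95 ± 0.11, adjusted p = 0.0031). The receptor kinase AXL was at 5.24 and 5.18 and then at 9.75 and 9.38 FPKM (0.77 ± 0.09, adjusted p = 0.0026), and the angiomotin AMOTL2, which binds YAP1, at 7.14 and 7.71 and then at 11.8 and 12.2 FPKM (0.63 ± 0.08, adjusted p = 0.0050). These 3 were called in all 6 leave-one-out fits. F3 (tissue factor) rose by 0.78 from about 1 FPKM. CCN2 (CTGF), a matricellular protein also much used as a YAP target, was at 1.65 and 1.46 and then at 2.18 and 1.76 FPKM, above the controls but not past the threshold (0.22 ± 0.12, adjusted p = 0.26). The 2 most abundant members fell, IGFBP3 from 280 and 263 to 221 and 220 FPKM (-0.30, adjusted p = 0.029) and GADD45A from 94.2 and 100 to 81.2 and 82.0 FPKM (-0.25, adjusted p = 0.031). The 9 calls were all kept in the GC-adjusted fit, and 3, 3 and 4 of them without shNT replicate 2, shPCYT2-2 replicate 1 and shPCYT2-2 replicate 2.

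The ANKRD1 promoter is shown because ANKRD1 was the target gene with the largest rise and the TEAD motif can be read in it. The stretch below is chr10:90921277-90921337 (GRCh38.p14, minus strand, from RefSeq), the 61 bases from 250 to 190 before the RefSeq start, and capitals mark the motif GGAATG.
ANKRD1: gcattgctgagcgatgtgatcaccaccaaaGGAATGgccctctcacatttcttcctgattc
Searched on both strands over the 250 bases before each start, GGAATG was found in 11.9% of 27305 promoters and in 9.23% of the 10074 promoters of tested genes. It was found in 6 of the 15 tested YAP/TAZ targets with a promoter in the table. Of these 15 targets, 6 were called higher, and 2 of those 6 had the motif. ANKRD1 had a further match 128 to 123 bases before its start, and CCN2, which did not pass, had 3. A match is a run of letters and not a measured site.

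**Figure D4:**
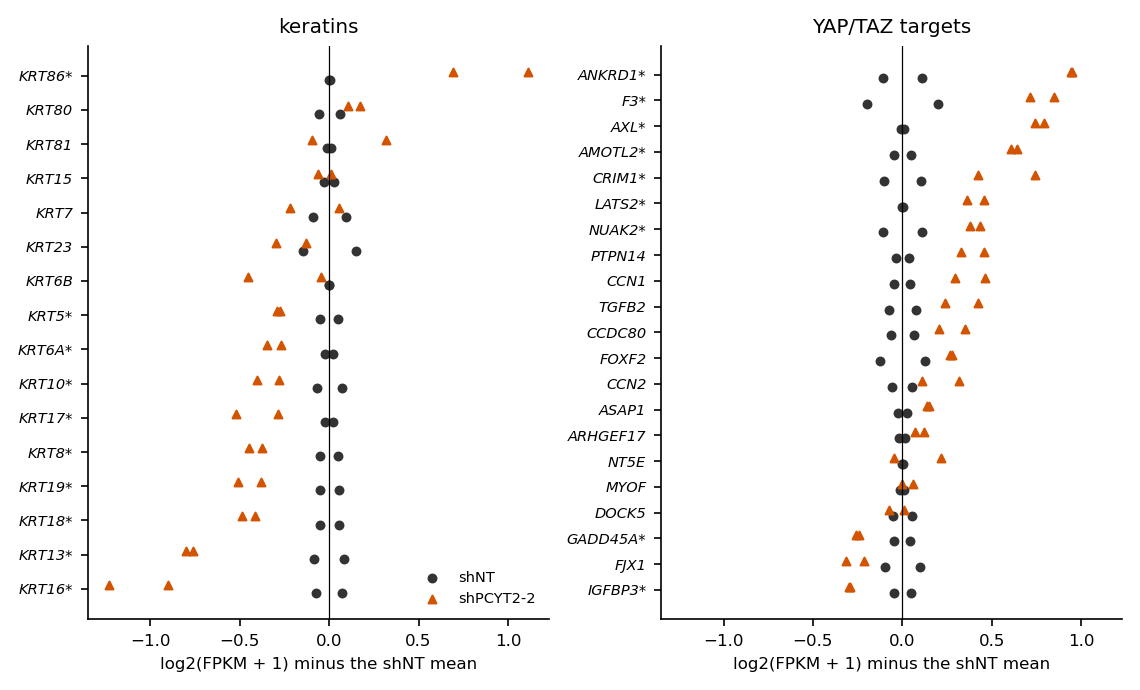
For each tested keratin (left) and YAP/TAZ target (right), points give log2(FPKM + 1) of each library minus the mean of the shNT libraries, with shNT as black circles and shPCYT2-2 as orange triangles, and an asterisk marks called genes. Of the keratins 9 of 16 were called lower and KRT86 higher, and of the targets 7 of 21 were called higher, led by ANKRD1 (0.95), and IGFBP3 and GADD45A lower.

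PEBP1, a PE-binding protein, and PPP2R1A, a scaffold subunit of the phosphatase PP2A, are proteins the study examined alongside YAP1. PEBP1 was at 79.6 and 83.0 FPKM in shNT and at 90.5 and 89.7 in shPCYT2-2 (0.15, adjusted p = 0.12), and PPP2R1A at 62.9 and 67.1 and then at 58.1 and 59.2 FPKM (-0.15, adjusted p = 0.15). Neither passed, and in the GC-adjusted fit PEBP1 did (0.17, adjusted p = 0.038). Of 26 tested members of this list, which includes PP2A and the STRIPAK complex that inhibits MST1/2, 5 rose and STRN4 fell. The scaffold PPP2R1B rose from 4.30 and 4.45 to 6.501 and 6.19 FPKM (0.45, adjusted p = 0.017), MOB4 by 0.48, PDCD10 by 0.39 and STK26 by 0.37. Only the calls of PPP2R1B and STRN4 (-0.17 there) were kept in the GC-adjusted fit. Without shNT replicate 2, shPCYT2-2 replicate 1 or shPCYT2-2 replicate 2, 0 of the 6 passed in limma, and 6 had an unadjusted p under 0.05 in each of these fits.

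Keratins, the intermediate filaments of epithelia, were the list with the largest share of calls: 9 of 16 tested members fell and 1 rose, 62.5% against the background of 12.4%. The abundant pair KRT8 and KRT18, which assemble with each other in simple epithelia, fell together. KRT8 was at 3602 and 3861 FPKM in shNT and at 2734 and 2874 in shPCYT2-2 (-0.41 ± 0.06, adjusted p = 0.0048), and KRT18 at 3242 and 3487 and then at 2396 and 2522 FPKM (-0.45 ± 0.06, adjusted p = 0.0032). KRT19, another keratin of glandular cells, went from 1017 and 1093 to 741 and 809 FPKM (-0.44 ± 0.06, adjusted p = 0.0055). No knockdown library reached a control library for any of the 3.

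The keratins of stratified epithelia that were called fell as well. KRT16 was at 13.4 and 11.99 FPKM and then at 4.81 and 6.31 (-1.07 ± 0.13, adjusted p = 0.0031), and KRT13 at 17.96 and 15.9 and then at 9.25 and 9.56 (-0.78 ± 0.09, adjusted p = 0.0025). KRT16 and KRT17 are similar enough in sequence to share reads, so the split between them is uncertain. KRT86, which has a near copy in KRT81, rose from 6.69 and 6.66 to 11.4 and 15.6 FPKM (0.90 ± 0.13, adjusted p = 0.0056). KRT16, KRT13 and KRT86 were called in all 6 leave-one-out fits. Of the 10 calls, 9 were kept in the GC-adjusted fit, 7 without shNT replicate 2, 3 without shPCYT2-2 replicate 1 and 7 without shPCYT2-2 replicate 2.

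Of 22 tested epithelial markers 1 rose and 3 fell, and of 14 tested mesenchymal markers 2 rose and 1 fell (21.4% called, against 12.4% of all tested genes). CDH1 (E-cadherin) was at 15.1 and 14.7 FPKM in shNT and at 17.3 and 16.9 in shPCYT2-2 (0.19, adjusted p = 0.12), and VIM (vimentin) at 86.5 and 83.6 and then at 78.4 and 76.9 FPKM (-0.13, adjusted p = 0.21, and -0.21, adjusted p = 0.062, in the GC-adjusted fit). Neither passed, and the knockdown libraries lay above both controls for CDH1 and below both for VIM. The EMT factors ZEB1 (0.835 and 0.684, then 1.27 and 1.20 FPKM, 0.35, adjusted p = 0.066, and 0.16, adjusted p = 0.27, in the GC-adjusted fit), SNAI1 (0.12, adjusted p = 0.46, and 0.20, adjusted p = 0.20, in the GC-adjusted fit) and SNAI2 (0.05, adjusted p = 0.81) did not pass. TWIST1 was near 0 in all 4 libraries, and CDH2 was not listed in any of them and so was not tested. Among the epithelial markers, KRT8, KRT18 and KRT19 fell and CDH17 rose, from 1.00 and 0.968 to 1.89 and 1.72 FPKM. Among the mesenchymal markers, TAGLN and SPARC, each under 2 FPKM, rose by 0.64 and 0.59, and S100A4, at 880.2 and 868 and then 749 and 773 FPKM, fell by 0.20.

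Among junction genes 3 of 28 rose, the adhesion receptor CXADR (0.49), CLDN1 (0.40) and CTNND1 (0.37, p120-catenin, 31.2 and 30.8, then 41.7 and 39.2 FPKM), and CLDN15 fell (-0.45). This was 14.3% called, against 12.4% of all tested genes. Of the 11 calls in the epithelial, mesenchymal and junction lists, 10 were kept in the GC-adjusted fit, where S100A4 was not (adjusted p = 0.12) and CXADR and CLDN1 rose by 0.32 and 0.26, and 5, 1 and 6 without shNT replicate 2, shPCYT2-2 replicate 1 and shPCYT2-2 replicate 2.

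Integrins and matrix genes had 3 of 29 tested members called, all higher (10.3%), near the background. LAMC1, the gamma chain of most laminins, was at 10.7 and 10.7 FPKM in shNT and at 19.97 and 17.9 in shPCYT2-2 (0.77 ± 0.08, adjusted p = 0.0023). ITGA5, the fibronectin receptor chain, was at 30.8 and 30.9 and then at 47.4 and 51.8 FPKM (0.67 ± 0.07, adjusted p = 0.0020). The controls of both were nearly identical and the knockdown libraries lay far above them, and both were called in all 6 leave-one-out fits. ITGA6, part of the laminin receptor, rose by 0.33 (0.20 in the GC-adjusted fit).

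Focal adhesion and actin genes moved in both directions, with 6 of 42 higher and 7 lower (median 0.04). PXN (paxillin), a scaffold of focal adhesions, was at 39.5 and 40.6 FPKM and then at 28.98 and 30.0 (-0.43 ± 0.07, adjusted p = 0.0095), and ZYX (zyxin) at 24.5 and 27.8 and then at 16.1 and 17.9 FPKM (-0.59 ± 0.10, adjusted p = 0.0090). The kindlins, which activate integrins, moved in opposite directions: FERMT1, the epithelial one, fell from 34.1 and 33.1 to 27.2 and 23.1 FPKM (-0.41, adjusted p = 0.019) and FERMT2 rose from 4.17 and 3.42 to 5.99 and 6.36 FPKM (0.58, adjusted p = 0.013, and 0.36 in the GC-adjusted fit). Myosin genes also divided, MYH9 falling by 0.37 and MYL9 rising by 0.66, while VCL and MSN rose by 0.26 each. ACTB, among the most abundant of the list, did not pass (0.15, adjusted p = 0.10). Of the 16 calls in these 2 lists, 12 were kept in the GC-adjusted fit, VCL and MSN not among them (adjusted p = 0.12 each), and 6, 3 and 6 without shNT replicate 2, shPCYT2-2 replicate 1 and shPCYT2-2 replicate 2.

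Matrix proteases and their inhibitors had 7 of 22 tested genes higher and 1 lower (median 0.24). The inhibitors TIMP1 and TIMP3 rose. TIMP1 was at 69.8 and 66.0 FPKM in shNT and at 97.1 and 102 in shPCYT2-2 (0.54 ± 0.06, adjusted p = 0.0026), and TIMP3 rose from 4.65 and 4.86 to 6.5001 and 6.90 FPKM (0.42, adjusted p = 0.024). Of the proteases, the sheddase ADAM9 (0.56) and the cathepsin CTSL (0.50) rose, and MMP14, the membrane-bound collagenase, fell from 8.38 and 9.11 to 6.81 and 6.77 FPKM (-0.32, adjusted p = 0.046). TIMP1 was called in all 6 leave-one-out fits, and it was the 1 call of 8 kept in each of the fits without shNT replicate 2, shPCYT2-2 replicate 1 and shPCYT2-2 replicate 2. In the GC-adjusted fit 6 of the 8 were kept.

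Chaperones of the ER fold secreted proteins and are induced by the unfolded protein response (UPR). In the whole list 8 of 22 tested genes were higher and 1 lower (median 0.23), and among the 14 chaperones 7 were higher and 1 lower (median 0.27). HSPA5 (BiP), the master chaperone, was at 97.2 and 95.3 FPKM in shNT and at 131 and 121 in shPCYT2-2 (0.38 ± 0.06, adjusted p = 0.0080). HSP90B1 (GRP94) was at 125 and 106 and then at 175 and 154 FPKM (0.50 ± 0.09, adjusted p = 0.011), and the disulfide isomerase PDIA3 at 53.5 and 53.4 and then at 73.7 and 70.3 FPKM (0.42 ± 0.06, adjusted p = 0.0067). The groups did not overlap for any of them.

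DNAJB9, a UPR target, rose by 0.60 and SEL1L, of the degradation machinery, by 0.55. SDF2L1 fell from 40.3 and 41.8 to 32.4 and 35.2 FPKM. CALR, the most abundant member on average but below HSP90B1 in shPCYT2-2, did not pass (151 and 162, then 143 and 134 FPKM, -0.18, adjusted p = 0.096), nor did the factor XBP1 (0.02, adjusted p = 0.83). Of the 9 calls, 7 were kept in the GC-adjusted fit, SDF2L1 not among them (adjusted p = 0.23), 3 without shNT replicate 2 and 4 without shPCYT2-2 replicate 2. Without shPCYT2-2 replicate 1, 0 passed in limma and all 9 had an unadjusted p under 0.05.

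Promoter stretches of HSPA5 and HSP90B1 are shown because both rose and carry the letters of the ER stress element. The stretches are chr9:125241344-125241593 (GRCh38.p14, minus strand, the 250 bases before the RefSeq start) and chr12:103930160-103930320 (plus strand, 250 to 90 bases before the start), from RefSeq, and capitals mark the motif, the letters CCAAT and CCACG with any 9 bases between them.
HSPA5: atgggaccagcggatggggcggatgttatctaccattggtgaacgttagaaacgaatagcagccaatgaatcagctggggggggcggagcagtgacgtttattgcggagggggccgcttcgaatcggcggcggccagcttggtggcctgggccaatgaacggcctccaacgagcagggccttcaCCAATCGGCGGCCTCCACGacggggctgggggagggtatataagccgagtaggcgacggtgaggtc
HSP90B1: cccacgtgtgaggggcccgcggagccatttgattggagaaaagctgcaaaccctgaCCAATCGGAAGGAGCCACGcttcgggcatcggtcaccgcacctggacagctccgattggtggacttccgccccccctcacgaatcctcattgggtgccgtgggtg
Searched on both strands over the 250 bases before each start, this motif was found in 22 of 27305 promoters (0.0806%) and in 14 of the 10074 promoters of tested genes. It was found in 6 of the 21 tested ER genes with a promoter in the table, of which HSPA5 and HSP90B1 rose and CALR, CANX, CRELD2 and XBP1 were not called. HSP90B1 had a further match on the other strand 89 to 71 bases before its start.

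In the integrated stress response, in which ATF4 drives amino acid genes, 4 of 23 tested genes rose and 1 fell (21.7% called, against 12.4% of all tested genes). PSAT1, of serine synthesis, was at 115 and 106 FPKM and then at 155 and 150 (0.47, adjusted p = 0.0046), MTHFD2, of mitochondrial folate metabolism, rose by 0.31, ALDH1L2 by 0.44 and SESN2 by 0.36. The pseudokinase TRIB3 fell from 207 and 199 to 149 and 171 FPKM (-0.34, adjusted p = 0.021), and ATF4 itself did not pass (402 and 380, then 332 and 362 FPKM, adjusted p = 0.094). Among heat shock genes 2 of 20 fell (10% called, against 12.4% of all tested genes), the factor HSF1 (-0.49) and HSPA8 (-0.21). Among proteasome subunits 3 of 31 fell (9.68% called), all of them ATPases of the regulatory particle. PSMC5 went from 57.6 and 63.8 to 43.3 and 42.7 FPKM (-0.49, adjusted p = 0.0056), PSMC3 fell by 0.33 and PSMC4 by 0.27. Of these 10 calls 6 were kept in the GC-adjusted fit, where MTHFD2, ALDH1L2, TRIB3 and PSMC4 were not (adjusted p from 0.054 to 0.16), and 4 and 3 without shNT replicate 2 and shPCYT2-2 replicate 2. Without shPCYT2-2 replicate 1, 0 passed in limma and all 10 had an unadjusted p under 0.05.

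Among growth signals, CCND1 (cyclin D1), which couples growth signals to the cell cycle, gave one of the firmest changes. It was at 132 and 134 FPKM in shNT and at 199 and 196 in shPCYT2-2 (0.57 ± 0.05, adjusted p = 0.0012) and was called in all 6 leave-one-out fits. MYC did not pass (268 and 272, then 260 and 280 FPKM, -0.0015, adjusted p = 0.99). In the list of ERK output 2 of 24 rose, CCND1 and the feedback inhibitor SPRY4 (0.28), and ETV4 (-0.45) and EPHA2 (-0.43) fell. This was 16.7% called, against 12.4% of all tested genes. Of 8 tested EGF family genes (12.5% called) the ligand TGFA fell, from 18.3 and 16.9 to 12.3 and 12.9 FPKM (-0.45, adjusted p = 0.011), and the receptors did not pass. In the IGF axis IGF1 rose (3.69 and 3.63, then 6.84 and 5.09 FPKM, 0.57, adjusted p = 0.028), and IGFBP1 and IGFBP3 fell. In the Eph and semaphorin list EPHA2, EFNB1 (-0.43) and SEMA4C (-0.26) fell, 3 of 30 (10% called).

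Wnt genes had 4 of 39 higher and 3 lower (17.9% called, against 12.4% of all tested genes). Besides CCND1, WNT10A, a ligand, rose from 4.88 and 5.21 to 6.997 and 6.47 FPKM (0.35, adjusted p = 0.045), and the secreted inhibitors NOTUM (129 and 153, then 179.5 and 166 FPKM) and DKK1 rose by 0.29 and 0.26. Over the leave-one-out fits NOTUM ran from 0.17 to 0.42. With median-ratio scaling NOTUM and DKK1 did not pass (adjusted p = 0.097 and 0.072). The coreceptor LRP5 (45.9 and 51.2, then 34.4 and 34.2 FPKM, -0.49, adjusted p = 0.0070), TCF7L1 and SOX4 fell. TGF-beta and BMP genes had 6 of 32 higher and 2 lower. TGFBR3 (betaglycan), a coreceptor, was at 0.429 and 0.419 FPKM and then at 1.86 and 1.52 (0.91, adjusted p = 0.0032). Since its shNT values lay under the limit of 0.5 FPKM, it was tested only through the libraries in which it was high. The targets TGFBI (12.5 and 13.3, then 20.7 and 17.7 FPKM, 0.53) and PMEPA1 (0.44) and the receptor BMPR1A (0.35) rose, and the most abundant ligand, BMP4, and its target ID1 fell by 0.24 and 0.27. Of the 24 calls in the lists of these 2 paragraphs, 19 were kept in the GC-adjusted fit, where IGF1, DKK1, TCF7L1, BMPR1A and ID1 were not, and 9, 2 and 10 without shNT replicate 2, shPCYT2-2 replicate 1 and shPCYT2-2 replicate 2.

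Genes of intestinal identity divided, with 5 of 26 higher and 4 lower. Among those higher, the mucin MUC13 was at 17.5 and 16.5 FPKM in shNT and at 29.2 and 26.4 in shPCYT2-2 (0.68 ± 0.08, adjusted p = 0.0029), called in all 6 leave-one-out fits. The Paneth cell defensins rose, DEFA5 from 19.3 and 22.0 to 48.9 and 37.7 FPKM (1.02 ± 0.13, adjusted p = 0.0043) and DEFA6 from 0.567 and 3.41 to 8.82 and 6.38 FPKM, with controls far apart. Among those lower, the factor HNF4A went from 31.9 and 36.1 to 25.4 and 25.4 FPKM (-0.40, adjusted p = 0.014), and PHGR1, TFF2 and TFF3, of the differentiated mucosa, fell by 0.62, 0.50 and 0.25. In the S100 family of calcium-binding proteins 1 of 12 tested genes rose and 3 fell (33.3% called, against 12.4% of all tested genes). S100A3 rose from 258 and 237 to 358 and 395 FPKM (0.60 ± 0.08, adjusted p = 0.0054), and S100A6, the most abundant, fell from 1254 and 1265 to 923 and 1072 FPKM.

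Of 16 chemokines and genes of NF-kB feedback 3 rose and 2 fell (31.2% called, against 12.4% of all tested genes). The NF-kB target TNFAIP2 was at 3.35 and 3.99 FPKM and then at 7.30 and 7.40 (2.00-fold, 0.84 ± 0.10, adjusted p = 0.0032), called in all 6 leave-one-out fits, while the chemokine CXCL16 fell from 20.8 and 20.7 to 13.7 and 13.9 FPKM (-0.56, adjusted p = 0.0048) and RELB by 0.52. ICAM1 rose by 0.44, and CXCL1, near 1 FPKM, by 0.48. In the class I presentation list 1 of 12 rose (8.33%), the light chain B2M, from 17.0 and 25.3 to 40.9 and 38.8 FPKM (0.91 ± 0.15, adjusted p = 0.0090). Of 31 interferon response genes 3 rose (9.68%), IFI6 (0.38), LGALS3BP (0.29) and IFITM2 (0.20). With median-ratio scaling LGALS3BP and IFITM2 did not pass (adjusted p = 0.085 and 0.16), and LGALS3BP ran from 0.19 to 0.38 over the leave-one-out fits. Of the 22 calls among intestinal, S100, immune and interferon genes 18 were kept in the GC-adjusted fit, where S100A6 was not (adjusted p = 0.092), and 9, 3 and 7 without shNT replicate 2, shPCYT2-2 replicate 1 and shPCYT2-2 replicate 2.

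Glycolysis and hypoxia genes had 3 of 36 higher and 4 lower, SLC2A3 and SLC2A1 among them. The muscle-type phosphofructokinase PFKM rose by 0.31, and ALDOC by 0.64, with knockdown libraries of 14.3 and 20.9 FPKM. Over the leave-one-out fits ALDOC ran from 0.38 to 0.90, and with median-ratio scaling ALDOC did not pass (0.59, adjusted p = 0.072). EPAS1 (HIF-2 alpha) fell from 8.28 and 9.31 to 5.90 and 5.56 FPKM (-0.54, adjusted p = 0.013) and GPI by 0.36, and GAPDH, the most abundant, did not pass (-0.05, adjusted p = 0.58). Of 76 nuclear genes of the respiratory chain 5 rose and 7 fell (15.8% called, against 12.4% of all tested genes, median 0.01). NDUFS6 of complex I was at 95.9 and 100.4 FPKM and then at 65.1 and 68.3 (-0.55 ± 0.06, adjusted p = 0.0025), called in all 6 leave-one-out fits. SDHA of complex II rose from 98.9 and 99.8 to 124 and 119 FPKM (0.28, adjusted p = 0.018), and NDUFB7 and NDUFA8 fell by 0.35 and 0.31.

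Of 19 amino acid transporters 3 passed (15.8%, against 12.4% of all tested genes). SLC1A5 fell, and SLC38A2 (49.3 and 44.8, then 72.1 and 60.1 FPKM, 0.48, adjusted p = 0.015, and 0.285 in the GC-adjusted fit) and SLC36A1 (0.47) rose. In the list of NRF2, glutathione and ferroptosis genes 3 of 29 passed (10.3%), TFRC and the polyamine enzyme SAT1 (263 and 222, then 335 and 371 FPKM, 0.54, adjusted p = 0.011) higher and PGD of the pentose phosphate pathway lower (-0.27). Of the 25 calls among glucose, respiration, amino acid and NRF2 genes 18 were kept in the GC-adjusted fit, where ALDOC and NDUFB7 were not (adjusted p = 0.053 and 0.057), and 8, 4 and 8 without shNT replicate 2, shPCYT2-2 replicate 1 and shPCYT2-2 replicate 2.

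Mitosis genes had 5 of 37 called, all higher (median 0.12). This was 13.5%, against 12.4% of all tested genes called and 7.69% called higher. WEE1, the kinase that holds back entry into mitosis, was at 11.1 and 11.9 FPKM and then at 20.7 and 19.1 (0.74 ± 0.08, adjusted p = 0.0023), called in all 6 leave-one-out fits. ANLN and ECT2, which act in cytokinesis, rose by 0.70 and 0.63, and BUB1 by 0.33. Of 37 genes of DNA replication (10.8% called, also near the background) 3 rose, GINS1 of the replicative helicase (7.05 and 6.53, then 12.99 and 10.8 FPKM, 0.72 ± 0.10, adjusted p = 0.0054), RRM2 (0.39) and MCM4 (0.28), and the licensing factor CDT1 fell (-0.50). Of 21 p53 targets 5 rose, among them CCNG1 (0.49, and 0.30 in the GC-adjusted fit), SESN1 (0.41), SESN2 and GDF15 (0.30), and 3 fell, PHLDA3 (-0.46), GADD45A and TNFRSF10B (-0.24). Of the 17 calls in these lists 15 were kept in the GC-adjusted fit, where BUB1 and SESN1 were not (adjusted p = 0.089 and 0.071), and 5, 1 and 3 without shNT replicate 2, shPCYT2-2 replicate 1 and shPCYT2-2 replicate 2.

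Of 78 cytosolic ribosomal protein genes 4 rose and 3 fell (8.97% called, against 12.4% of all tested genes), with changes of 0.20 to 0.28 for RPS12, RPS10, RPSA and RPS26 and, among those lower, of -0.20 and -0.24 for RPL8 and RPS19. All 6 of these calls were lost in the GC-adjusted fit (adjusted p from 0.054 for RPS26 to 0.43 for RPSA) and with median-ratio scaling (adjusted p from 0.056 for RPS19 to 0.30 for RPSA). Of 32 splicing factors 6 rose (18.75%, against 7.69% of all tested genes), among them PTBP3 (0.48, and 0.27 in the GC-adjusted fit), HNRNPC (0.32), SRSF5 (0.31) and HNRNPK (0.29), and of 32 autophagy genes 4 rose (12.5%), WIPI1 (0.40), NBR1 (0.37), UVRAG (0.37) and MAP1LC3B (0.36). Of these 17 calls only 6 were kept in the GC-adjusted fit, where HNRNPC (0.14, adjusted p = 0.29) and SRSF5 (0.15, adjusted p = 0.27) were also among those lost. Without shNT replicate 2, shPCYT2-2 replicate 1 and shPCYT2-2 replicate 2, 1 was kept in each.

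The hairpins were then compared directly, with shPCYT2-2 minus shPCYT2-1 in the same fit, in which 27.1% of the 12756 tested genes were called. Both hairpins were set against the same shNT libraries above, so the direct contrast is the one that speaks to a difference. Of the 1585 genes called with shPCYT2-2, 789 (49.8%) also differed from shPCYT2-1, 435 of those higher and 354 of those lower. The 1585 genes were selected on the shPCYT2-2 libraries, which the direct contrast also uses. A deviation of these libraries raises both, so 49.8% cannot be set against 27.1%. Among the firmest changes, SLC2A3 was higher with shPCYT2-2 than with shPCYT2-1 (267 and 292 FPKM) by 0.90 ± 0.06 (adjusted p = 7.0e-05) and EEF2 was lower (911 and 964 FPKM with shPCYT2-1) by 0.96 ± 0.06 (adjusted p = 3.5e-05). UCP2 (1.63 and 1.55 FPKM with shPCYT2-1), ANKRD1 (2.72 and 3.24) and AXL (3.82 and 3.88) were higher with shPCYT2-2 by 1.37, 1.25 and 1.12, and KRT18 (3437 and 3394) was lower by 0.47 (adjusted p = 7.9e-05, 0.00019, 9.2e-05 and 0.00059).

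Other genes did not differ past the threshold between the hairpins. TFRC was at 91.3 and 87.0 FPKM with shPCYT2-1 (difference -0.01 ± 0.08, adjusted p = 0.95), SLC2A1 at 345 and 357 (0.002 ± 0.06, adjusted p = 0.99), ETNK1 at 19.5 and 18.3 (0.01 ± 0.10, adjusted p = 0.96) and CXCL16 at 13.6 and 14.6 (-0.03 ± 0.08, adjusted p = 0.78). YAP1, at 28.4 and 28.1 FPKM with shPCYT2-1, lay between the other groups (0.24 ± 0.09, adjusted p = 0.069). CCN2 was lower with shPCYT2-2 than with shPCYT2-1 (3.91 and 3.29 FPKM) by 0.63 ± 0.12 (adjusted p = 0.0057).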

How the data were processed

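RNA-Seq values of 6 SW480 libraries were used. The authors deposited 1 table per library with FPKM per Ensembl gene, read as such from the values. The aligner, counter and annotation are not given in the sources used here, and 2 library kits and genome builds of 2 organisms are named without saying which library had which. Low values gave no common step, so reads were not recovered. Rows were joined by Ensembl ID, unlisted genes were set to 0, repeated or identical rows were merged, and names came from GENCODE 29. Genes with a mean of at least 0.5 FPKM were fitted as log2(FPKM + 1) in limma 3.58.1 (R 4.3.3) with 3 groups and a variance trend. The GC-adjusted fit removed a trend on GC content and length from each library. The script was tested on simulated data. Promoters came from RefSeq (GRCh38.p14). Named were PCYT2, genes of the study's pathway, the 15 largest and 8 most abundant protein-coding calls each way, up to 4 called members of each list each way, and members that define a list or are its most abundant. COL1A1, PISD, KRT6A, KRT17, KRT81, ACTB, CANX and CRELD2 were picked outside this rule with their values already known. The members and gene lists were chosen with earlier results of these data known. A few genes that this rule names are not reported here.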

Additional observations from a re-analysis of the deposited data

Results flagged for a closer look

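The hairpins moved 24 of the named genes in opposite directions, each called against shNT for either hairpin and different between the hairpins in the direct contrast by limma, as were 127 of all 12756 tested genes. Of the 219 named genes other than PCYT2, 188 were called with shPCYT2-2, against 1585 of the 12756. The 24 and the 127 therefore cannot be compared as shares. The values given are shPCYT2-2 minus shPCYT2-1 in log2(FPKM + 1). Those higher than shNT with shPCYT2-2 and lower with shPCYT2-1 were CST3 (0.86), AXL (1.12), ITGA5 (0.89), TIMP3 (0.77), HSP90B1 (1.09), CCND1 (1.02), WNT10A (0.94), NOTUM (0.78), MUC13 (1.02), S100A3 (1.15), TNFAIP2 (1.43), IFI6 (0.70), IFITM2 (0.53) and SAT1 (0.83). Those lower with shPCYT2-2 and higher with shPCYT2-1 were DCTN1 (-1.39), CDK16 (-1.04), KRT6A (-0.58), KRT17 (-1.34), FERMT1 (-0.69), MMP14 (-0.80), TRIB3 (-0.68), PSMC3 (-0.60), SOX4 (-0.64) and PGD (-0.61). KRT6A and KRT17 each have near copies in their own keratin type with which they may share reads. WNT10A, NOTUM, IFITM2, MMP14 and SOX4 passed only narrowly against shNT with shPCYT2-2 (adjusted p from 0.045 to 0.047 in limma). With median-ratio scaling the calls of NOTUM and IFITM2 were lost (adjusted p = 0.097 and 0.16). In the GC-adjusted fit those of KRT17 and TRIB3 were lost (adjusted p = 0.070 and 0.078). Both hairpins were set against the same shNT libraries, so a deviation of these libraries moves both contrasts alike, while the difference between the hairpins does not use their values, although its estimate of the spread includes them.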

How the results depend on the processing

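The count of 1585 calls was 124 with no expression limit (19655 genes tested) and 1027 with no trend in the variances, and the cause was not tested. Over the fits that each left out 1 library it ran from 125 (without shPCYT2-2 replicate 1) to 1893 (without shNT replicate 1), and the count for shPCYT2-2 minus shPCYT2-1, 3463, ran from 1662 to 3785. PCYT2 was called in every alternative run. Of the 188 other named genes that were called, 153 were called in the GC-adjusted fit, 158 with median-ratio scaling and 31 with no expression limit, and none changed direction in any alternative.

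The genes that changed sign were not called in the main comparison. In the GC-adjusted fit, with or without the replicate block, STK3 was at -0.12, LYZ at -0.028, TEAD1 at -0.019, TEAD2 at 0.040, SNAI2 at -0.088, XBP1 at -0.12, MYC at 0.0081 and GAPDH at 0.014. With median-ratio scaling SREBF2 was at -0.047 and XBP1 at -0.033. Over the leave-one-out fits STK3 ran from -0.078 to 0.25, CDX2 from -0.11 to 0.0019, LYZ from -0.15 to 0.33, SREBF2 from -0.026 to 0.039, TEAD2 from -0.055 to 0.023, KRT81 from -0.097 to 0.32, SNAI2 from -0.087 to 0.20, CRELD2 from -0.039 to 0.19 and MYC from -0.055 to 0.052.

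Libraries with the same replicate number deviated together little (correlation 0.062 for shNT with shPCYT2-2, 0.0027 for shNT with shPCYT2-1, 0.19 between the hairpins), and the labels give the numbers no shared source. On the third principal component the hairpin libraries numbered 1 lay above 0 (3.45 and 11.3) and those numbered 2 below (-5.90 and -11.8), and a shared batch was not tested. With the number as a replicate block 2029 genes were called (1319 higher, 710 lower). When the 4 libraries were fitted alone, 1075 were called with this block and 1279 without it. A fit of counts was not run, since the files hold FPKM. The number of libraries limits the precision, and the depth behind each value is unknown.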
